A study of Homo sapiens
Mus musculus and Homo sapiens and Mus musculus with 7 samples.

Results

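The 43 genes described here encode proteins that carry a cell through mitosis and cytokinesis. They were taken by gene symbol from GENCODE 29 and are 43 of the 58721 human genes counted. Entry into mitosis is driven by the active kinase CDK1 bound to a B-type cyclin. The spindle then attaches to kinetochores, and a checkpoint holds back the anaphase-promoting complex (APC/C), a ubiquitin ligase, until every chromosome is attached. The APC/C then marks securin and cyclin B for degradation, sister chromatids part, and the contractile ring divides the cell. Transcripts of many of these genes accumulate in G2 and M phase, so that in a growing line such as HEK293 they come mainly from the dividing fraction of cells. Because the samples were bulk RNA, fewer cells in mitosis and less RNA per mitotic cell cannot be told apart.

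The study grew human HEK293 cells, an embryonic kidney line, together with mouse NIH3T3 fibroblasts. The HEK293 cells made the ribosomal protein RPL22 with an HA epitope tag and the NIH3T3 cells made RPL22 with a V5 tag, so that immunoprecipitation (IP) with an antibody to a tag could recover ribosomes, and the RNA on them, from the line that carried it. The groups were the HA IPs of the co-culture (a first and a second, n = 2), the V5 IPs of the same kind of co-culture (a first and a second, n = 2), the total RNA of the co-culture (the input, 1 library), and each line grown alone (1 library each). The first IPs are labelled as made from lysate 1, the second HA IP from lysate 5 and the second V5 IP from lysate 4. The sources used here do not say how these lysates relate, whether the IPs of a pair came from separate cultures, what drives the tagged genes or whether cells grown alone carried a tag. All p-values thus rest on how far the 2 IPs of a pair lie apart, taken over many genes together, and that distance may be technical.

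Counts on human genes numbered 729698 and 1213213 for the HA IPs, 128915 and 81798 for the V5 IPs, 280163 for the co-culture input and 826673 for the HEK293 monoculture. The NIH3T3 monoculture had 511 counts on human genes and 0 on any of the 43. Levels are given as CPM of human counts, that is, a gene's counts per 1000000 counts on human genes in that library. The fitted log2 changes below also use edgeR's TMM scaling between libraries, which CPM do not, so they can differ from the ratio of the CPM shown. In the HEK293 monoculture, 6 of 8 HEK293 markers had counts. The intermediate filament genes KRT18 and NEFL had 195 and 99.2 CPM, LIN28B 10.9 CPM and KRT8 8.47 CPM. INA and PAX2 had 1.21 CPM each, below the 3.63 CPM that correspond to 3 counts there, and NEFM and GATA3 were at 0. The fibroblast genes COL1A1 and LUM and the blood gene CD74 also had 1.21 CPM each. Summed fibroblast markers reached at most 12.2 CPM in any of the 6 libraries. Mitochondrially encoded genes held 0.354% and 0.466% of human counts in HA IPs, 2.28% and 3.54% in V5 IPs, 5.58% in the input and 8.35% in HEK293. Their part in the differences of the 43 genes was not tested beyond the summed level given with the alternative settings.

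The 43 genes together held 5465 and 4747 CPM in the HA IPs (mean 5106 ± 508, SD, n = 2) and 5329 and 4731 CPM in the V5 IPs (mean 5030 ± 423, SD, n = 2). They held 3858 CPM in the co-culture input (exact Clopper-Pearson 95% interval 3632 to 4095) and 5433 CPM in the HEK293 monoculture (5275 to 5593). Intervals reflect counting error of reads and nothing else. No molecular identifiers were used, so reads may be copies of the same molecule and the intervals may be too narrow. Intervals given below for ratios of pooled IPs also leave out the distance between the IPs. The input was thus lower than each of the other 5 libraries, while the range of the HA IPs held the HEK293 value. The sum is carried by few genes. UBE2C, PTTG1, CKS1B, CKS2, BIRC5 and CENPW, set apart after their values were seen, held 3163 and 3366 CPM in the HA IPs, 2436 and 2592 CPM in the V5 IPs, 2566 CPM in the input and 2410 CPM in HEK293. Their sum was highest in the HA IPs and was not lowest in the input, but the 6 genes differed. UBE2C, PTTG1 and BIRC5 were higher in the input than in HEK293, and CKS1B, CKS2 and CENPW were lower. UBE2C had 1110 CPM in the input, against 594 CPM in HEK293. CKS2 had 218 against 442 CPM and CENPW 146 against 344 CPM, and both had their highest level in HEK293. The other 37 genes held 2302 and 1381 CPM in the HA IPs, 2893 and 2139 CPM in the V5 IPs, 1292 CPM in the input and 3023 CPM in HEK293.

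**Figure D1:**
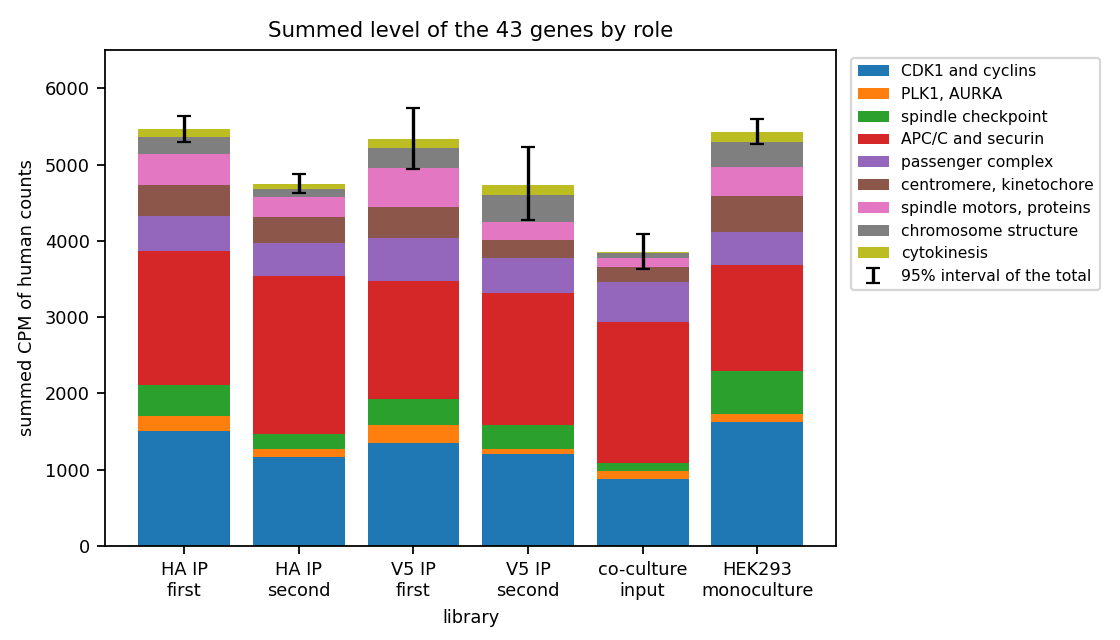
Summed CPM of human counts (vertical axis) of the 43 genes in each of the 6 libraries with human RNA, stacked by the genes' role; black bars give the exact 95% interval of the total, which covers counting error. The total is 3858 CPM in the co-culture input and 4731 CPM or more in the other 5 libraries.

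To compare genes, levels were divided by exonic length, which joins the exons of all annotated transcripts of a gene. The order thus depends in part on annotation. CKS1B has 2338 exonic bases, against 912 in its longest coding transcript, while CKS2 has 613 in both. Per kilobase of exonic sequence, the highest levels in HEK293 were those of CKS2 (720 CPM per kb) and UBE2C (462 CPM per kb). CKS2 is a small subunit that binds cyclin-dependent kinases, and UBE2C is a ubiquitin-conjugating enzyme that works with the APC/C. They were followed by CENPW at 432, PTTG1 at 225, CKS1B at 191, CDC20 at 158, CCNB1 at 150 and AURKB at 116 CPM per kb. In the HA IPs the order was led by UBE2C at 928 CPM per kb, with CKS2 at 592, and CDC20 had 45.1 CPM per kb. UBE2C also led in the V5 IPs, at 779 CPM per kb, and in the input, at 863 CPM per kb. CENPA, the histone H3 variant of centromeres, lay at the other end with counts of 0 and 4 (HA IPs), 0 and 0 (V5 IPs), 0 (input) and 3 (HEK293). At these depths 3 counts correspond to 4.11 and 2.47 CPM in the HA IPs, 23.3 and 36.7 CPM in the V5 IPs, 10.7 CPM in the input and 3.63 CPM in HEK293, so a member at 0 in a V5 IP may still lie at a level that the HA IPs would show.

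CKS1B (hg38 chromosome 1, 154974653 to 154979249, plus strand) and CKS2 (chromosome 9, 89311198 to 89316703, plus strand) are paralogues of equal coding length, and both were among the most counted members. Reads that match several places were not counted, so their coding sequences are shown to let their separation be judged. They are read 5′ to 3′ from the GENCODE 29 transcripts, and capitals mark the bases that differ.
CKS1B: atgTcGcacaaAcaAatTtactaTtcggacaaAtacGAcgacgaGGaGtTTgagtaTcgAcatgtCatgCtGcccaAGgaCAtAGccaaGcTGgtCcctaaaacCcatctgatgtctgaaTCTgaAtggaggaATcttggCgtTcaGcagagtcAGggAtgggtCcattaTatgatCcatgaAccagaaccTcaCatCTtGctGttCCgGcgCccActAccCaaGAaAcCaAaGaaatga
CKS2: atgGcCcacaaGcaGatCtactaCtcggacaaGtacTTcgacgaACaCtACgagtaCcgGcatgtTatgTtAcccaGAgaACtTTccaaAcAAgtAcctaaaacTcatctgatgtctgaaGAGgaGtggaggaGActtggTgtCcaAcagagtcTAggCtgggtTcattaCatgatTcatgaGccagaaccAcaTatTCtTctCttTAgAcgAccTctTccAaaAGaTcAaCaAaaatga
They differ at 65 of 240 bases (72.9% identity), and the longest identical run is 15 bases. Other genes whose symbols mark them as copies of members held between 0 and 2 counts in each of these 6 libraries. Some members share exons with other genes, from which reads cannot be told apart in unstranded counts. The largest shares of exonic bases were 62.2% in NUSAP1, 58.4% in PRC1, 33.1% in NCAPG, 25.6% in SMC4, 12.5% in PLK1 and 10.2% in BUB1B. Further members had smaller shares, such as 9.08% in CCNA2, 6.96% in CENPA, 5.05% in KIF20A and 2.87% in HMMR. Values of these genes are uncertain to that extent.

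**Figure D2:**
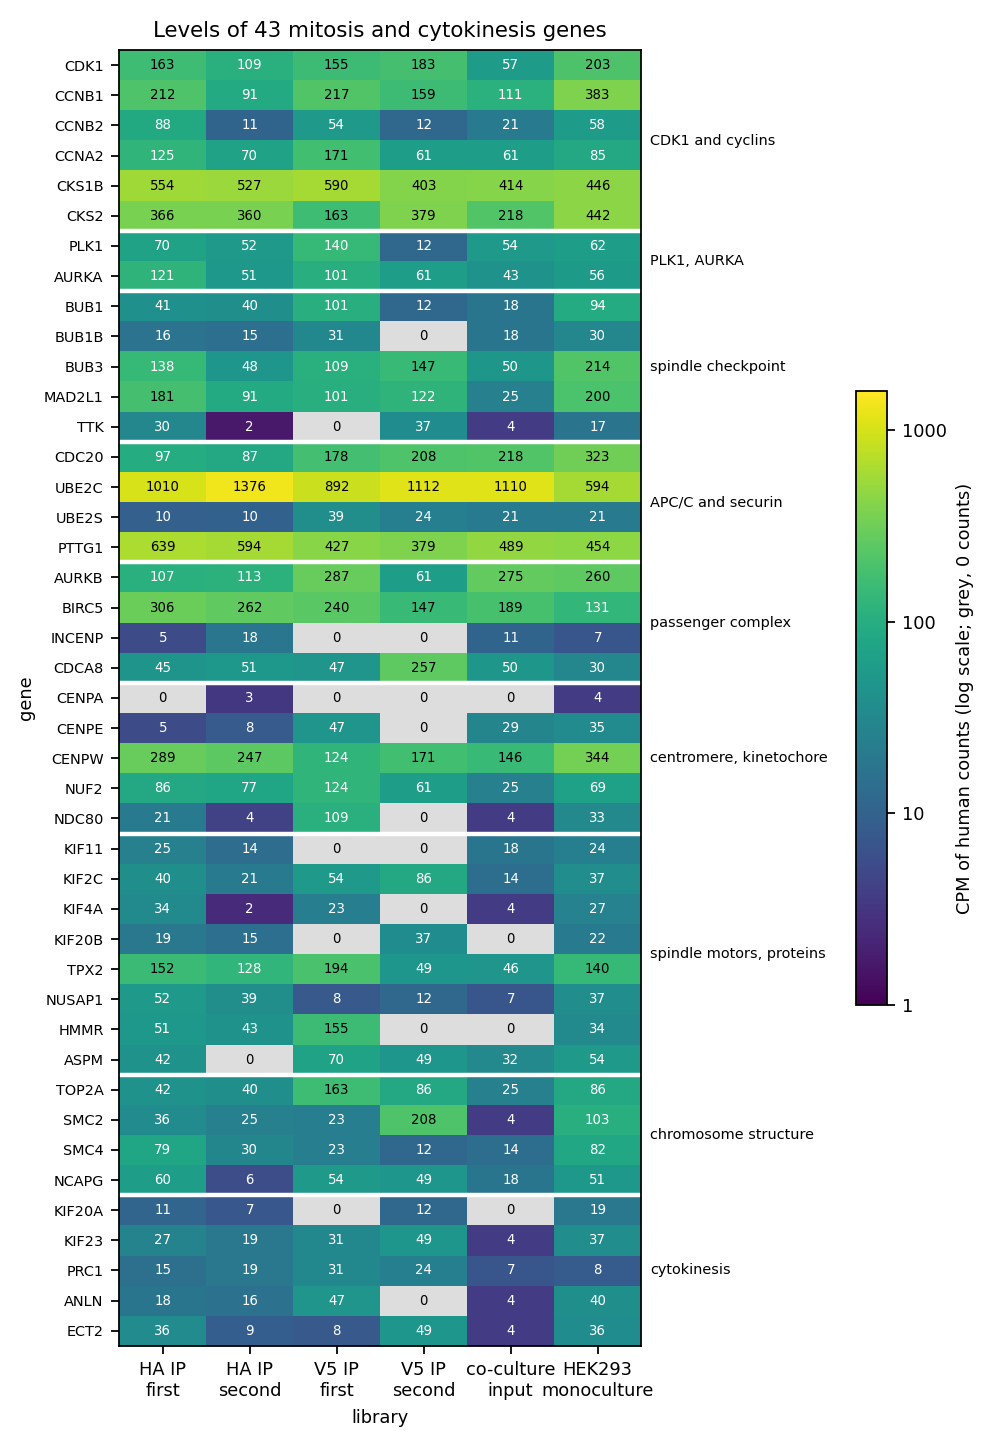
CPM of human counts for each of the 43 genes (rows, grouped by role) in the 6 libraries with human RNA (columns); the colour scale is logarithmic and grey cells had 0 counts. UBE2C has the highest value in every column, the input column has 0 counts for CENPA, KIF20B, HMMR and KIF20A, and the HEK293 column has counts for all 43.

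The HA IPs were first set against the co-culture input, which asks how the human RNA recovered with HA-tagged ribosomes differs from the human RNA in the total extract. Of the 43 genes, 25 had both HA IPs above the input and 5 had both below it. Both HA IPs were above the input in 4 of 6 CDK1 and cyclin genes and 1 of 2 kinases. The same held for 2 of 5 checkpoint, 1 of 4 APC/C and securin, 1 of 4 passenger and 3 of 5 kinetochore genes. It also held for 5 of 8 spindle, 3 of 4 chromosome and 5 of 5 cytokinesis genes. The cytokinesis genes had 0 to 2 counts in the input. The share of all genes was computed at 50 CPM or more in any library, which no cytokinesis gene reached. CDC20, UBE2S, AURKB, BUB1B and CENPE lay below in both. No gene passed the test: edgeR's quasi-likelihood test, adjusted by Benjamini-Hochberg over all 6244 human genes tested, called 0 of the 40 members that passed the filter on low counts, against 0.625% of all genes tested. At an unadjusted p under 0.05 there were 4 of the 40 members, beside 8.86% of all genes tested, and DESeq2's Wald test also called 0. CENPA, INCENP and KIF20A did not pass the filter. Among genes with at least 50 CPM in any library, 19 of 29 members lay wholly above the input and 2 wholly below, beside 52.8% and 26.1% of all such genes. The fitted log2 change had a median of 0.72 over the 40 members and 0.38 over all genes tested, and 27 members were above the median of all genes and 13 below it. With DESeq2 size factors the medians were 0.51 and 0.17, and with total human counts 0.94 and 0.57. These values rest in part on the first HA IP. Without it the medians were 0.36 over 36 members and 0.31 over all genes, with 18 members above and 18 below, and without the second HA IP they were 1.05 and 0.20, with 26 above and 10 below.

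Among the kinase subunits that drive entry into mitosis, CDK1 had 163 and 109 CPM in the HA IPs, against 57.1 CPM in the input. Both HA IPs were above the input, and the fitted log2 change was 1.04 (SE 0.86; edgeR adjusted p = 0.807). Its partner cyclin B1, CCNB1, had 212 and 90.7 CPM in the HA IPs, against 111 CPM in the input, so that the input lay between the HA IPs. CKS1B had 554 and 527 CPM in the HA IPs, against 414 CPM in the input, and CKS2 had 366 and 360 CPM, against 218 CPM. Their log2 changes were 0.21 (SE 0.61) and 0.56 (SE 0.67), within the error of the fit. Cyclin A, CCNA2, lay above the input in both HA IPs, while for CCNB2 the HA IPs were far apart, at 87.7 and 10.7 CPM, against 21.4 CPM in the input. The mitotic kinase PLK1 had 69.9 and 51.9 CPM in the HA IPs, against 53.5 CPM in the input, with a log2 change of -0.02 (SE 1.02). AURKA, the kinase of spindle poles, had 121 and 51.1 CPM in the HA IPs, against 42.8 CPM in the input, with a log2 change of 0.75 (SE 1.03; edgeR adjusted p = 0.900).

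Genes of the spindle checkpoint differed among themselves. MAD2L1, which in its active form sequesters CDC20, had 181 and 91.5 CPM in the HA IPs, against 24.99 CPM in the input. It was higher in both HA IPs, by 2.20 on the log2 scale (SE 1.00; edgeR adjusted p = 0.476). The ratio of pooled CPM, without TMM factors, was 5.01 (exact 95% interval 2.39 to 12.6) from 243 counts in HA IPs, against 7 in the input. BUB3, a WD-repeat protein of the same checkpoint, had 138 and 47.8 CPM in the HA IPs, on either side of 49.97 CPM in the input. CDC20, the APC/C activator that this checkpoint restrains, lay on the other side of the input, with 97.3 and 86.5 CPM in the HA IPs, against 218 CPM in the input. It was lower in both, by -1.43 on the log2 scale (SE 0.71; edgeR adjusted p = 0.539). UBE2C, the enzyme that starts ubiquitin chains on APC/C substrates, had 1010 and 1376 CPM in the HA IPs, on either side of 1110 CPM in the input, with a log2 change of -0.04 (SE 0.54). PTTG1, which encodes securin, had 639 and 594 CPM in the HA IPs, against 489 CPM in the input, a log2 change of 0.15 (SE 0.60).

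Genes of the chromosomal passenger complex lay on both sides of the input. AURKB, its kinase, had 107 and 113 CPM in the HA IPs, against 275 CPM in the input. Both HA IPs were lower, by -1.49 on the log2 scale (SE 0.70; edgeR adjusted p = 0.502). BIRC5, the survivin subunit of the same complex, had 306 and 262 CPM in the HA IPs, against 189 CPM in the input, both higher, with a log2 change of 0.40 (SE 0.72). CDCA8, the borealin subunit, had 45.2 and 51.1 CPM in the HA IPs, on either side of 49.97 CPM in the input. INCENP, the scaffold, was near the limit of counting, with 4 and 22 counts in HA IPs, against 3 in the input.

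At the kinetochore, NUF2, a subunit of the microtubule-binding NDC80 complex, had 86.3 and 76.7 CPM in the HA IPs, against 24.99 CPM in the input, with a log2 change of 1.51 (SE 1.10; edgeR adjusted p = 0.777). CENPW, a histone-fold protein of the inner kinetochore, had 289 and 247 CPM in the HA IPs, against 146 CPM in the input. The motor CENPE was lower, with 4 and 10 counts in HA IPs, against 8 in the input, a pooled ratio of 0.252 (exact 95% interval 0.0988 to 0.694). Of the spindle proteins, TPX2, an activator of AURKA, had 152 and 128 CPM in the HA IPs, against 46.4 CPM in the input, with a log2 change of 1.40 (SE 0.92; edgeR adjusted p = 0.731). HMMR, a spindle assembly protein that is also a hyaluronan receptor, had 37 and 52 counts in HA IPs, against 0 in the input, and KIF20B had 14 and 18 against 0. With 3 counts in place of the 0, pooled CPM was at least 4.28-fold higher in the HA IPs for HMMR and at least 1.54-fold higher for KIF20B. HMMR had an edgeR adjusted p of 0.272, which was below 0.05 in 3 of the 10 alternative fits that gave a value (range 0.0170 to 1.00). With these 2 genes at their bounds the median log2 change of the 40 members was 0.65.

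Among chromosome structure genes, SMC2, a core condensin subunit, had 26 and 30 counts in HA IPs, against 1 in the input, a pooled ratio of 8.08 (exact 95% interval 1.39 to 325). TOP2A, the topoisomerase that untangles sister DNA, had 42.5 and 39.6 CPM in the HA IPs, against 24.99 CPM in the input, with a log2 change of 0.53 (SE 1.11). All 5 cytokinesis genes, KIF20A, KIF23, PRC1, ANLN and ECT2, lay above the input in both HA IPs, but each had 2 counts or fewer in the input. The largest of their levels in these 3 libraries was 35.6 CPM, for the RhoA activator ECT2 in the first HA IP, which had 9.07 CPM in the second HA IP and 3.57 CPM in the input.

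**Figure D3:**
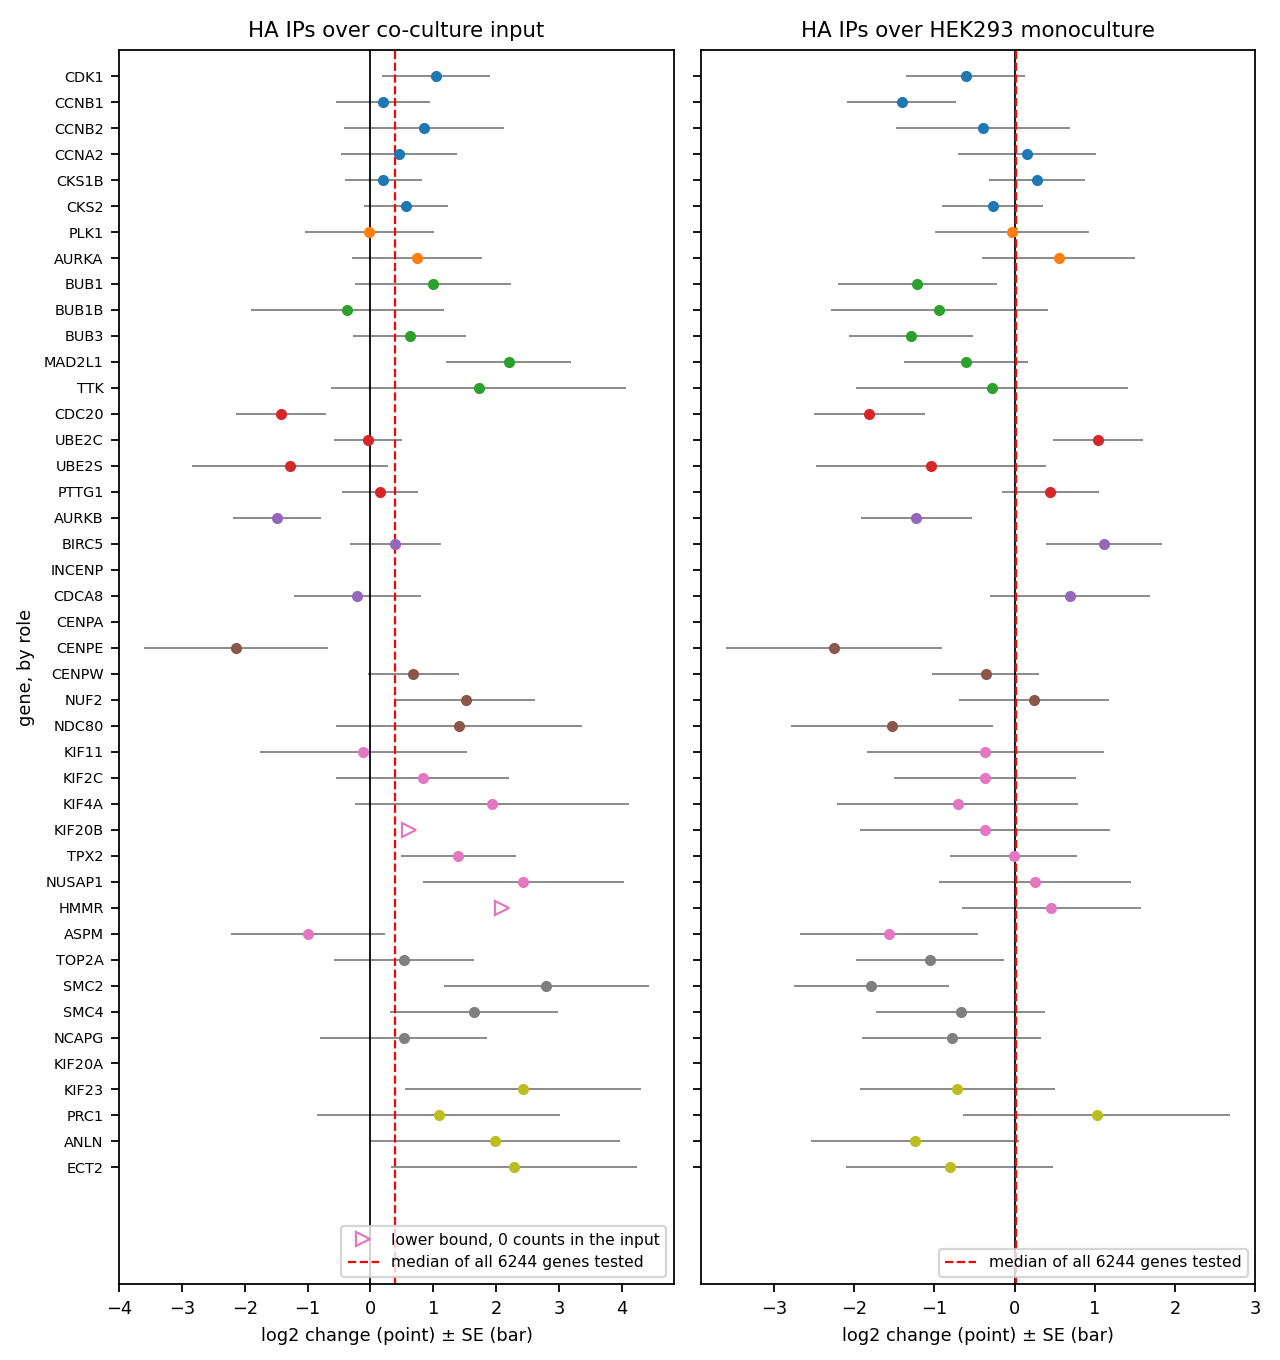
Fitted log2 change (points) ± SE (grey bars) of the members tested, coloured by role, for the HA IPs over the co-culture input (left) and over the HEK293 monoculture (right); red dashed lines mark the median of all genes tested, open triangles are lower bounds for genes with 0 counts in the input, and 3 untested genes have no point. Most points lie right of the red line on the left and left of it on the right, with bars that overlap it for most genes.

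The 4 members with an unadjusted p under 0.05 in this comparison, a share near that of all genes, differ in base composition, and the last 90 coding bases of each are shown for that reason. Sequences are from the GENCODE 29 transcripts on hg38, read 5′ to 3′, with G and C in capitals. AURKB lies on chromosome 17 (8204733 to 8210600, minus strand), CDC20 on chromosome 1 (43358955 to 43363203, plus strand), MAD2L1 on chromosome 4 (120055608 to 120067074, minus strand) and HMMR on chromosome 5 (163460203 to 163491945, plus strand).
AURKB: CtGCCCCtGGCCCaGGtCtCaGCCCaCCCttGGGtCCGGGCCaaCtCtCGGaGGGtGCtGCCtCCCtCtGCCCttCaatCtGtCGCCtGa
CDC20: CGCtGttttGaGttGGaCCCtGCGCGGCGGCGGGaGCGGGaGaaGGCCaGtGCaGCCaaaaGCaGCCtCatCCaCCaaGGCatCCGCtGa
MAD2L1: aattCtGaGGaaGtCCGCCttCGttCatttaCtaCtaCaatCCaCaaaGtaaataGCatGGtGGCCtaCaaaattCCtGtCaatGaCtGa
HMMR: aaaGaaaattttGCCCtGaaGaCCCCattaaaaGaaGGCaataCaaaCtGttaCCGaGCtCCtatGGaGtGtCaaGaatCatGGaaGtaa
The whole coding sequence holds 56.9% G and C in AURKB and 57.5% in CDC20, which were lower in the HA IPs than in the input. It holds 43.2% in MAD2L1 and 36.7% in HMMR, which were higher. Over the 40 members, the log2 change in HA IPs over input had a Spearman rho of -0.45 with the GC content of the longest transcript, and over all 6244 genes tested rho was -0.51. The 20 members with lower GC content had a median log2 change of 1.22 and the 20 with higher GC content 0.30, against 1.503 and 0.05 for all genes split at the same 42.2%. The members' transcripts had a median GC content of 42.5%, against 47.7% for all genes tested. Once the trend with GC content was removed, the members' median was -0.04, against 0.02 for all genes, and 20 of 40 members lay above 0. These correlations are across genes, which share libraries and are not independent replicates.

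**Figure D4:**
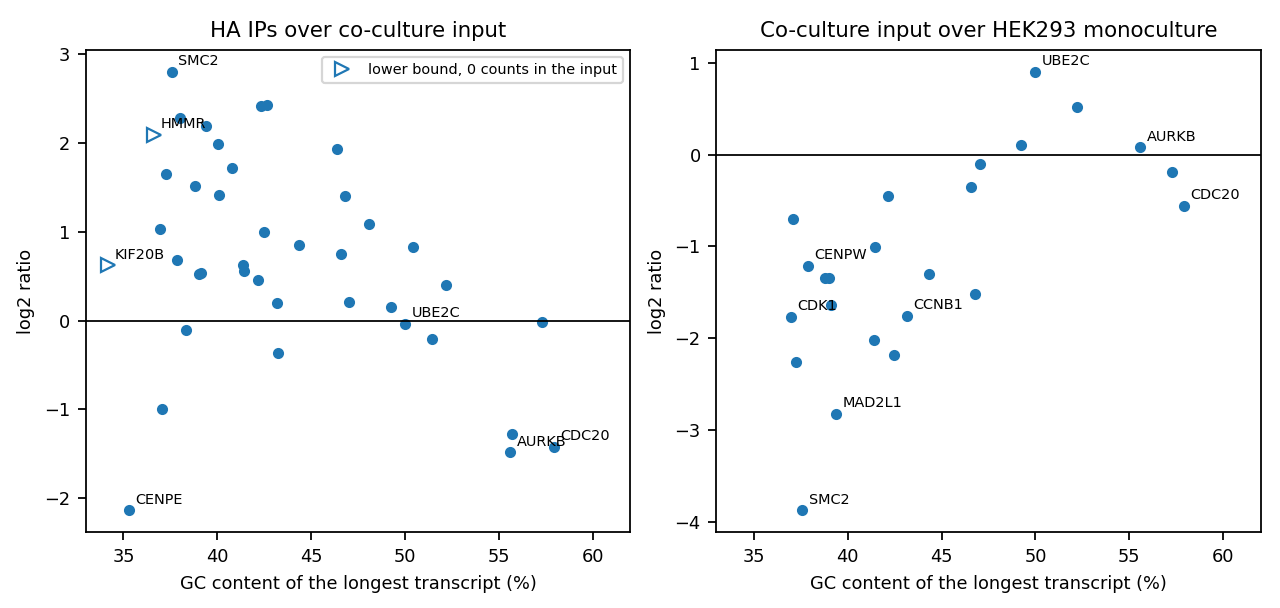
Log2 ratio (vertical axis) against GC content of the longest transcript in percent (horizontal axis), 1 point per member, for the fitted change of HA IPs over co-culture input (left, 40 members, open triangles are lower bounds) and the ratio of CPM of the input over the HEK293 monoculture (right, 24 members at 50 CPM or more). The left points slope down and the right points slope up, with rho of 0.68 on the right. The rho of -0.45 for the left comparison was computed on the fitted changes of all 40 members, also for the genes drawn as bounds.

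The HA IPs were next set against HEK293 cells grown alone, the human cells without mouse neighbours or IP. Here the members lay mostly lower: 23 of 43 had both HA IPs below HEK293 and 9 had both above. No member passed the test (edgeR, 0 of 40 called, against 0.368% of all genes tested; DESeq2 also 0), and 2 of 40 had an unadjusted p under 0.05, beside 3.83% of all genes. Among genes with at least 50 CPM in any library, 14 of 29 members lay wholly below HEK293 and 8 wholly above, beside 33.7% and 36.7% of all such genes. The median log2 change was -0.50 over the 40 members and 0.01 over all genes tested. Below the median of all genes were 29 of 40 members. Without the first HA IP the members' median was -0.86, with 26 of 36 below, and without the second HA IP it was -0.29, with 23 of 36 below.

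CDC20 had 97.3 and 86.5 CPM in the HA IPs, against 323 CPM in HEK293. It was lower in both, by -1.81 on the log2 scale (SE 0.69; edgeR adjusted p = 0.663), and was also lower than in the input. CCNB1 had 212 and 90.7 CPM in the HA IPs, against 383 CPM in HEK293, a log2 change of -1.41 (SE 0.68; edgeR adjusted p = 1.00). AURKB had 107 and 113 CPM in the HA IPs, against 260 CPM in HEK293, a log2 change of -1.23 (SE 0.69). The checkpoint genes BUB1, BUB1B, BUB3 and MAD2L1 were lower in both HA IPs, and TTK had 22 and 2 counts in HA IPs, against 14 in HEK293. BUB3 had 138 and 47.8 CPM in the HA IPs, against 214 CPM in HEK293, a log2 change of -1.29 (SE 0.78). SMC2 had 35.6 and 24.7 CPM in the HA IPs, against 103 CPM in HEK293, a log2 change of -1.79 (SE 0.97), so that it lay between the input and HEK293. CDK1, with 163 and 109 CPM in the HA IPs against 203 CPM in HEK293, and TOP2A, with 42.5 and 39.6 CPM against 85.9 CPM, were also lower in both, by less than their SE or close to it (log2 -0.61, SE 0.75, and -1.06, SE 0.92).

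A smaller number lay above HEK293. UBE2C had 1010 and 1376 CPM in the HA IPs, against 594 CPM in HEK293, a log2 change of 1.04 (SE 0.56; edgeR adjusted p = 1.00). BIRC5 had 306 and 262 CPM in the HA IPs, against 131 CPM in HEK293, a log2 change of 1.11 (SE 0.73). Both were higher in each HA IP, as was PTTG1 with 639 and 594 CPM, against 454 CPM in HEK293 (log2 change 0.45, SE 0.60). CKS1B had 554 and 527 CPM in the HA IPs, against 446 CPM in HEK293 (log2 change 0.28, SE 0.60). AURKA (log2 change 0.55, SE 0.96) and PLK1 (-0.04, SE 0.96) had HEK293 values of 55.6 and 61.7 CPM between those of the HA IPs. Over the members, the log2 change was lower for longer transcripts, with a Spearman rho of -0.41 (n = 40), against -0.24 over all 6244 genes. The 20 members with longer transcripts had a median of -0.75 and the 20 with shorter ones -0.16, against -0.18 and 0.18 for all genes split at the same length. After removal of the GC trend the medians were -0.34 for members and 0.08 for all genes.

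In the V5 IPs the human RNA came from cells without the V5 tag, and the members were counted over 687 and 387 reads in all. Against the input, 18 of 43 members had both V5 IPs above and 4 had both below, and edgeR called 0 of 40 (0.753% of all genes tested; DESeq2 also 0; 2 of 40 members at an unadjusted p under 0.05, beside 12.9% of all genes). Among genes with at least 50 CPM in any library, 14 of 29 members lay wholly above the input and 2 wholly below, beside 37.8% and 24.0% of all such genes. The median log2 change was 0.60 over the members and 0 over all genes. Some tested genes had a change of exactly 0, as arises without counts in either group, so the 0 may be a floor value. In a fit of only the groups compared the medians were 0.85 over 24 members and 0.16 over all genes. The members' median turned to -0.18 over 42 members without the first V5 IP, where all genes had -0.36, and was 0.58 without the second. With total human counts it was 1.15, where all genes had 0.53. CDK1 had 155 and 183 CPM in the V5 IPs, against 57.1 CPM in the input, both above (log2 change 1.00, SE 0.89; edgeR adjusted p = 0.637). MAD2L1 had 101 and 122 CPM in the V5 IPs, against 24.99 CPM in the input (log2 change 1.58, SE 1.03). KIF2C, a microtubule-depolymerising kinesin, had 54.3 and 85.6 CPM in the V5 IPs, against 14.3 CPM in the input (log2 change 1.69, SE 1.45). It had 7 counts in each V5 IP and reached 50 CPM in no other library. It thus met that level, for the share above and for being named, only through the group where it was high. TOP2A had 163 and 85.6 CPM in the V5 IPs, against 24.99 CPM in the input (log2 change 1.78, SE 1.17). These 4 were higher in both V5 IPs than in the input.

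In other members the V5 IPs lay far apart. SMC2 had 3 and 17 counts in V5 IPs, against 1 in the input (edgeR adjusted p = 0.213, and 0.0138 without the first V5 IP; range over 10 alternatives 0.0138 to 0.627). HMMR had 20 and 0 counts in V5 IPs, against 0 in the input (edgeR adjusted p = 0.157, and 0.00699 without the second V5 IP; range over 10 alternatives 0.00699 to 1.00). AURKB had 287 and 61.1 CPM in the V5 IPs, on either side of 275 CPM in the input (log2 change -1.15, SE 0.73). CDC20 and PTTG1, by contrast, were lower in both V5 IPs than in the input. CDC20 had 178 and 208 CPM in the V5 IPs, against 218 CPM in the input (log2 change -0.74, SE 0.75). PTTG1 had 427 and 379 CPM in the V5 IPs, against 489 CPM in the input (log2 change -0.83, SE 0.60). Without TMM factors, which were 1.19 and 1.24 in the V5 IPs and 0.824 in the input, the differences were smaller. The ratio of pooled CPM was 0.872 (exact 95% interval 0.570 to 1.32) for CDC20 and 0.835 (0.630 to 1.10) for PTTG1. Both intervals covered equal levels. UBE2C had 892 and 1112 CPM, against 1110 CPM, and CENPW had 124 and 171 CPM, against 146 CPM, so that the input lay within the range of the V5 IPs. The HA and V5 comparisons share the input library, and their values are not independent.

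The HA IPs were also compared directly with the V5 IPs. Of 43 members, 29 had overlapping ranges, 7 lay wholly higher in the HA IPs and 7 wholly lower. EdgeR called 0 of 40 (0.368% of all genes tested; DESeq2 also 0), and 1 of 40 had an unadjusted p under 0.05, beside 11.2% of all genes. At 50 CPM or more in any library, 5 of 29 lay wholly above and 4 wholly below, beside 21.4% and 18.2% of all such genes. CENPW had 289 and 247 CPM in the HA IPs, against 124 and 171 CPM in the V5 IPs, with no overlap (log2 change 1.25, SE 0.61; edgeR adjusted p = 0.431). PTTG1 had 639 and 594 CPM in the HA IPs, against 427 and 379 CPM in the V5 IPs (log2 change 0.99, SE 0.51; edgeR adjusted p = 0.450). BIRC5 was likewise higher in both, with 306 and 262 CPM in the HA IPs, against 240 and 147 CPM in the V5 IPs (log2 change 0.90, SE 0.60). CDC20 was lower, with 97.3 and 86.5 CPM in the HA IPs, against 178 and 208 CPM in the V5 IPs (log2 change -0.69, SE 0.63), and so was TOP2A, with 42.5 and 39.6 CPM, against 163 and 85.6 CPM (log2 change -1.25, SE 0.83). For UBE2C (0.67, SE 0.45) and CKS2 (0.84, SE 0.55) the ranges overlapped. SMC2 (-1.49, SE 0.90), CDCA8 (-1.18, SE 0.83) and KIF2C (-0.86, SE 1.02) had, with TOP2A and CDC20, the lowest log2 changes among members with a mean of at least 50 CPM. KIF2C met that level through its V5 values. The median was 0.03 over the members and 0.37 over all genes, and it was -0.29 for members with DESeq2 size factors, where the median of all genes was 0.03. The direction of the members' median thus depends on the scaling, and 26 of 40 members lay below the median of all genes. Without the second HA IP this balance turned, with 19 members above the median of all genes and 17 below it (medians 0.18 and 0.11). The members' median was -0.23 without the first HA IP, 0.80 without the first V5 IP and -0.01 without the second V5 IP.

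The co-culture input and the HEK293 monoculture were compared as 1 library against 1, with no replicate check and no test. At 50 CPM or more in either library there were 24 members, of which 14 were past 2-fold lower in the input and 0 past 2-fold higher, beside 35.7% and 18.0% of the 2558 genes at that level. The median log2 ratio was -1.25 over the members and -0.31 over all those genes. SMC2 had 3.57 CPM in the input, against 103 CPM in HEK293, or 1 count against 85 (pooled ratio 0.0347, exact 95% interval 0.000869 to 0.199). MAD2L1 had 24.99 CPM in the input, against 200 CPM in HEK293 (ratio 0.125, exact 95% interval 0.0496 to 0.264). SMC4, BUB1 and BUB3 followed with log2 ratios of -2.26, -2.19 and -2.02. CDK1 (57.1 against 203 CPM) and CCNB1 (111 against 383 CPM) had log2 ratios of -1.77 and -1.76. For all of these genes the exact 95% interval of the ratio lay below 1, which covers counting error of reads alone.

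At the other end, UBE2C had 1110 CPM in the input, against 594 CPM in HEK293, a ratio of 1.87 (exact 95% interval 1.62 to 2.16). BIRC5 (log2 ratio 0.52), PTTG1 (0.11) and AURKB (0.08) were the other members above 0, and CKS1B had -0.11. All 4 passenger complex genes had more CPM in the input than in HEK293, INCENP on 3 and 6 counts. The exact 95% intervals of the ratio covered equal levels for AURKB (0.804 to 1.38), CDCA8 (0.794 to 3.30) and INCENP (0.239 to 6.91). The 6 CDK1 and cyclin genes, PLK1 and AURKA, the 5 checkpoint, 5 kinetochore, 8 spindle, 4 chromosome and 5 cytokinesis genes had less, whatever their level. Here too the intervals of several genes covered equal levels, among them CKS1B (0.746 to 1.15), PLK1 (0.453 to 1.57), AURKA (0.371 to 1.48) and CCNA2 (0.395 to 1.23). No share of all genes was computed beside these counts by role. The ratio was higher at higher GC content, with a Spearman rho of 0.68 over the 24 members and 0.78 over the 2558 genes. With the GC trend removed, 3 members were past 2-fold higher and 3 past 2-fold lower, with a median of 0.18.

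Within the HA pair, the second IP was compared with the first, again as 1 library against 1. Of 23 members at 50 CPM or more, 6 were past 2-fold lower in the second HA IP and 0 past 2-fold higher, beside 17.3% and 2.12% of 2590 genes. NCAPG, a condensin subunit, had 5.77 CPM in the second HA IP, against 60.3 CPM in the first, and CCNB2 had 10.7 CPM, against 87.7 CPM. BUB3, SMC4, CCNB1 and AURKA were the other 4, with log2 ratios between -1.46 and -1.18. CKS2 (-0.02), CKS1B (-0.07), PTTG1 (-0.10) and AURKB (0.08) differed little, and UBE2C was higher by 0.44. ASPM, a spindle pole protein with the longest transcript of the members, had 0 counts in the second HA IP and 31 in the first. Over the 23 members the log2 ratio had a Spearman rho of -0.68 with transcript length, against -0.35 over the 2590 genes.

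A further 120 genes of mitosis, in 6 lists drawn up with earlier results known, were read in the same fits, and 93 were tested. In HA IPs over input, edgeR called 0 as higher and 1 as lower at an adjusted p under 0.05, beside 0.625% of all genes called, and 16 had an unadjusted p under 0.05, beside 8.86%. Their median log2 change was 1.03, against 0.38 over all genes. DESeq2 called 0 as higher and 2 as lower, KIF22 and TUBG1. The gene that fell in edgeR was ANAPC2, the cullin subunit of the APC/C, with 4.11 and 3.30 CPM in the HA IPs, against 99.9 CPM in the input (log2 change -4.86, SE 1.28; edgeR adjusted p = 0.0304). Its transcript has a GC content of 63.3%, and it was not called with the GC trend removed, by DESeq2 or with either HA IP left out. In HA IPs over HEK293 and over V5 IPs edgeR and DESeq2 called 0 of the 93, with 3 and 12 at an unadjusted p under 0.05 in edgeR, beside 3.83% and 11.2% of all genes. In V5 IPs over input edgeR called 0 as higher and 2 as lower, beside 0.753% of all genes called, and 21 had an unadjusted p under 0.05, beside 12.9%. TUBG1, the gamma-tubulin of spindle poles, which has a close paralogue in TUBG2, had 427 and 183 CPM in the V5 IPs, against 999 CPM in the input (log2 change -2.23, SE 0.59; edgeR adjusted p = 0.0303). ENSA, an inhibitor of the phosphatase that reverses CDK1's work, had 54.3 and 24.5 CPM in the V5 IPs, against 243 CPM in the input (log2 change -3.10, SE 0.87; edgeR adjusted p = 0.0472). Neither was called with the GC trend removed or without the second V5 IP. TUBG1 was also not called without the first V5 IP, and ENSA not without either HA IP, whose spread enters the fit, or by DESeq2, which called TUBG1 alone. The cohesin gene SMC3 had 175 and 102 CPM in the HA IPs, against 42.8 CPM in the input. Its partner SMC1A had 170 and 64.3 CPM in the HA IPs, against 24.99 CPM in the input, so that both lay higher in each HA IP. Both were higher still in the V5 IPs, with 334 and 342 CPM for SMC3 and 318 and 220 CPM for SMC1A. ANAPC11, of the APC/C, had 1380 and 2108 CPM in the HA IPs, on either side of 1481 CPM in the input. CENPX, of the kinetochore, had 1429 and 2223 CPM in the HA IPs, on either side of 1610 CPM in the input.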

How the data were processed

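The authors deposited raw gene counts, made per the file headers with featureCounts 1.5.2 on exons in paired, unstranded mode (option 0) against human and mouse annotation joined together. STAR 2.5.2, SAMtools, Trim Galore, bcl2fastq and hg38 appear in the submitters' processing notes. No mouse build is named in the sources used here. SMART-seq cDNA went into Nextera DNA Flex libraries, per the labels' protocols.

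All 58721 human identifiers matched GENCODE 29. Tests across human genes used edgeR 4.0.16 in R 4.3.3 (quasi-likelihood, two-sided, TMM factors on human counts, Benjamini-Hochberg, threshold 0.05). They were made in a single fit of both IP pairs, the input and HEK293. Low counts were filtered by filterByExpr at 10 counts and a total of 15. It applies the 10 counts as a CPM level at the median library size, to be met in a single library. Fewer than 10 counts could thus pass a gene in the shallower V5 IPs. The single libraries were assumed to vary like the IPs, which gave 2 residual degrees of freedom and a biological coefficient of variation of 51.2%. The SE is the log2 change divided by the square root of edgeR's F. The members' p-values were those of a normal distribution of the change over this SE. The spread was thus in effect shared across genes, and a gene's own distance between IPs had little weight. DESeq2 1.42.0 was an alternative, with limma 3.58.1 loaded by edgeR. Single-library ratios used a prior count of 2. Python 3.11.15, pandas 2.3.3, scipy 1.17.1 and matplotlib 3.10.9 did the rest. The procedure was tested on simulated data.

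The members, the other gene lists and the tests were chosen with earlier results of these data known. Genes named with full values were, per tested comparison, the 5 highest and the 5 lowest log2 changes among members with a mean of at least 50 CPM, the 8 highest per kilobase in HEK293, and CDK1, CCNB1, CDC20, PLK1, AURKA, AURKB and TOP2A. Others, such as HMMR, KIF20B and CENPE, were named after their values were seen.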

Additional observations from a re-analysis of the deposited data

How the results depend on the processing

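No member was called under scaling by DESeq2 size factors or total human counts, without the filter, with 50 counts in 2 libraries, with DESeq2's Wald test, with the GC trend removed or with replicate block. The exceptions were HMMR in HA IPs over input, called in a fit of only the groups compared (1 member called) and when either V5 IP was left out, and SMC2 and HMMR in V5 IPs over input when the first (SMC2) or second (HMMR) V5 IP was dropped. With 1 replicate left out, members called ranged from 0 to 1 in each of these comparisons and stayed at 0 in the other two tested ones. A lone remaining IP was assumed to vary like the rest.

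Over all human genes, HA IPs over input had 39 calls, but 68 with DESeq2 size factors, 104 with total counts, 82 with DESeq2, 19 with the GC trend removed, 260 with only the groups compared, and 29 to 140 with 1 IP left out. HA IPs over HEK293 had 23 calls, but 53 with total counts, 35 with DESeq2, 15 with the GC trend removed, 48 with only the groups compared, and 26 to 63 with 1 IP left out. HA over V5 IPs had 23 calls, but 38 with total counts, and 18 to 117 with 1 IP left out. V5 IPs over input had 47 calls, but 72 with DESeq2 size factors, 105 with total counts, 30 with no filter, 7 with at least 50 counts, 2 with the GC trend removed, 71 with only the groups compared, and 76 to 167 with 1 IP left out. The cause of these moves was not tested.

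The second-minus-first deviations of HA and V5 IPs correlated with r = 0.0913 across 6244 genes, and the first IPs share the label of lysate 1 while the second ones do not share one, so the IP numbers were not taken as pairs. The replicate block gave 51, 28, 24 and 63 calls in the 4 comparisons, with 0 members each, and a members' median of 0.30 in V5 IPs over input; ANAPC2 was not called under it.

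Without each library's most counted member the summed CPM was 3913 in the HA IPs, 4028 in the V5 IPs, 2748 in the input and 4839 in HEK293, and without mitochondrially encoded genes in the library size it was 5928 in HEK293. Past 2-fold in input over HEK293 were 8 members (815 genes) at 100 CPM and 6 members (680 genes) with the GC trend removed, against 14 members and 1374 genes. Of 801 alternative values of named members, 27 changed by more than their SE without a call and 5 became calls. The sign changed in 56, of which 22 were in HA IPs over input, 3 in HA IPs over HEK293, 21 in HA over V5 IPs and 10 in V5 IPs over input. At under 30 counts, as for most members in the V5 IPs and the input, only large differences could be seen.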
